A study of Homo sapiens with 6 samples.

Results

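The clustered replication-dependent histone genes were described in RNA of A549 cells, a human lung adenocarcinoma line, with and without a plasmid for the mitochondrial transcription factor TFAM. They were taken as the protein-coding rows whose symbol starts with HIST1H, HIST2H, HIST3H or HIST4H, the gene names used for the 4 histone clusters. This gave 61 of the 29845 genes in the deposited table: 5 genes for H1, 14 for H2A, 18 for H2B, 11 for H3 and 13 for H4. A further 6 rows with such symbols were pseudogenes and were left out. The control libraries came from 3 cultures transfected with the empty pIRES-hrGFP-1a vector, and the TFAM-OE-labelled libraries came from 3 cultures transfected with the same vector carrying FLAG-tagged TFAM. All 6 cultures were of this line and all were transfected with Lipofectamine. Transfection is transient, so cells that took up the plasmid and cells that did not were measured together.

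Core histones H2A, H2B, H3 and H4 form the particle around which DNA is wound, and the linker histone H1 binds DNA where it enters and leaves that particle. The clustered genes supply histones while DNA is copied in S phase. Their mRNAs are the best known animal mRNAs that usually end without a poly(A) tail: the 3′ end is a short stem-loop, which is bound by SLBP and cut by a complex that holds ZNF473, LSM10 and LSM11. Some of these genes also give polyadenylated mRNA, which is known from cells that have stopped dividing or that differentiate. The libraries were made from polyadenylated RNA, so a difference in the amount of a histone mRNA and a difference in its polyadenylated share cannot be told apart here.

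The deposited counts summed to between 26650854 and 37321956 reads per library. The histone genes together took between 0.0161% and 0.0367% of them. Control replicate 1 stood apart for these genes: it was the highest of the 6 libraries for 19 of 34 tested histone genes, or 55.9%, and for 23.6% of all genes tested. TFAM itself had 76.1, 70.2 and 72.7 CPM, the reads of a gene scaled to library size and TMM factor, in control replicates 1 to 3 and 71.8, 77.3 and 83.1 in the TFAM-OE-labelled libraries. The groups overlapped and the log2 fold change was 0.084 ± 0.096 (SE, adjusted p = 0.626, edgeR's quasi-likelihood test), so the libraries are named by their labels throughout. The study followed the FLAG-tagged protein by western blot, which is not analysed here, and whether reads from the plasmid entered the counts is not given in the sources used here. Of the markers of the line, KRT8 and KRT18, the keratins of simple epithelium, had 357548 and 240271 reads over the 6 libraries, while EPCAM and CDH1, other epithelial genes, had 126 and 942. Markers of other cell types were PTPRC of leucocytes with 1 read, PECAM1 and CDH5 of endothelium with 14 and 6, and COL1A1 of fibroblasts with 771. In RNA of whole cultures, fewer cells that express a gene and less of its RNA in each cell cannot be told apart.

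The 3′ stem-loop is what these genes share beside their proteins. A stem of 6 paired bases that starts with GG and ends with T, around a loop of 4 bases that starts with T, was found within 100 bases after the stop codon in 59 of the 61 genes. It was found at that place in 12 other genes among the 19600 protein-coding genes searched. It began 22 to 67 bases after the stop codon, with a median of 35. HIST1H2AG and HIST1H2AK had no match to this pattern. The sequences below, read from GRCh38 in the direction of the gene, are shown because the comparisons later in the text turn on these genes. Capitals mark the stem-loop, lower case marks 5 genomic bases on each side, and T stands for the U of the RNA. They lie in the 3′ UTR.
HIST1H1C, chr6:26055739-26055764, minus strand: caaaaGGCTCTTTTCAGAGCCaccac
HIST1H1E, chr6:26157090-26157115, plus strand: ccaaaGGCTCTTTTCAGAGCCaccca
HIST2H2AA4, chr1:149851569-149851594, plus strand: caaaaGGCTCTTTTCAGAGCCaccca
HIST2H2AC, chr1:149887386-149887411, plus strand: ccaaaGGCTCTTTTTAGAGCCaccca
HIST2H2BE, chr1:149886183-149886208, minus strand: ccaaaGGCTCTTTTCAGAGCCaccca
HIST3H2A, chr1:228457364-228457389, minus strand: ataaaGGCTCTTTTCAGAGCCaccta
HIST3H2BB, chr1:228458533-228458558, plus strand: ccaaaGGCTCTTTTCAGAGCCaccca
HIST1H2BK, chr6:27146361-27146386, minus strand: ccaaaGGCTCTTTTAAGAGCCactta
HIST1H4H, chr6:26285126-26285151, minus strand: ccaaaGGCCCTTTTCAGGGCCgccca
HIST2H4B, chr1:149860764-149860789, minus strand: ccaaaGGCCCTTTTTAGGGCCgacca
There were 8 distinct stem-loops. The form of HIST1H1C was in 35 genes of classes H1, H2A, H2B and H3, that of HIST1H2BK was in 8, and that of HIST1H4H was in 8 genes, all of class H4.

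Levels between genes were compared by FPKM as deposited, which scales the reads of a gene by its transcript length and by the depth of the library. The counts and FPKM together imply the length used, if depth is taken as the sum of the deposited counts. The depth behind the FPKM is not given in the sources used here. The implied length was not always near the annotated one. It was 1951 bases for HIST1H2AC, whose main transcript in GENCODE version 44 has 519. For HIST1H2BK it was 449 against 495, a gap that another depth could give. The order of genes by FPKM therefore depends in part on these lengths. The level of the histone genes in this polyadenylated RNA spanned several orders of magnitude. HIST1H2BK, which encodes an H2B, had the highest level with a mean of 101 FPKM over the 6 libraries. HIST1H1C, which encodes the linker histone H1.2, followed with 95.9 FPKM. The next were HIST1H2AC, an H2A gene, with 15.7 FPKM, HIST1H2BD, an H2B gene, with 14.5, and HIST3H2A, an H2A gene of the small cluster on chromosome 1, with 10.01. The first neighbours in this order lay within each other's spread in the control, where HIST1H2BK had 112 ± 18.9 FPKM and HIST1H1C had 129 ± 26.5 FPKM (SD, n = 3). In the TFAM-OE-labelled libraries the values were 90.4 ± 6.15 and 62.5 ± 14.4 FPKM, so the order of these genes by mean differed between the groups.

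Within class H1 the second gene, HIST1H1E, had 1.50 FPKM. The highest H3 genes were HIST1H3H with 1.99 and HIST1H3B with 1.84 FPKM. The highest H4 genes were HIST1H4H with 5.40 and HIST2H4B with 3.98 FPKM. By reads this last order was reversed, with 493 for HIST1H4H and 1039 for HIST2H4B over the 6 libraries. Their implied lengths were 468 and 1336 bases. Only uniquely mapped reads were counted, so the level of HIST2H4B, whose coding sequence has an identical copy, may be partial. At the other end, 27 genes fell under the minimum for the test, a mean of 10 reads per library. These had at most 58 reads each over the 6 libraries, 8 of them had fewer than 10, and together they held 1.33% of the histone reads. Class H1 had 2 such genes, H2A 7, H2B 8, H3 5 and H4 5. Their summed level was 3.22 ± 0.54 CPM in the control and 3.06 ± 0.82 in the TFAM-OE-labelled libraries (SD, n = 3), and the libraries of the groups overlapped.

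**Figure D1:**
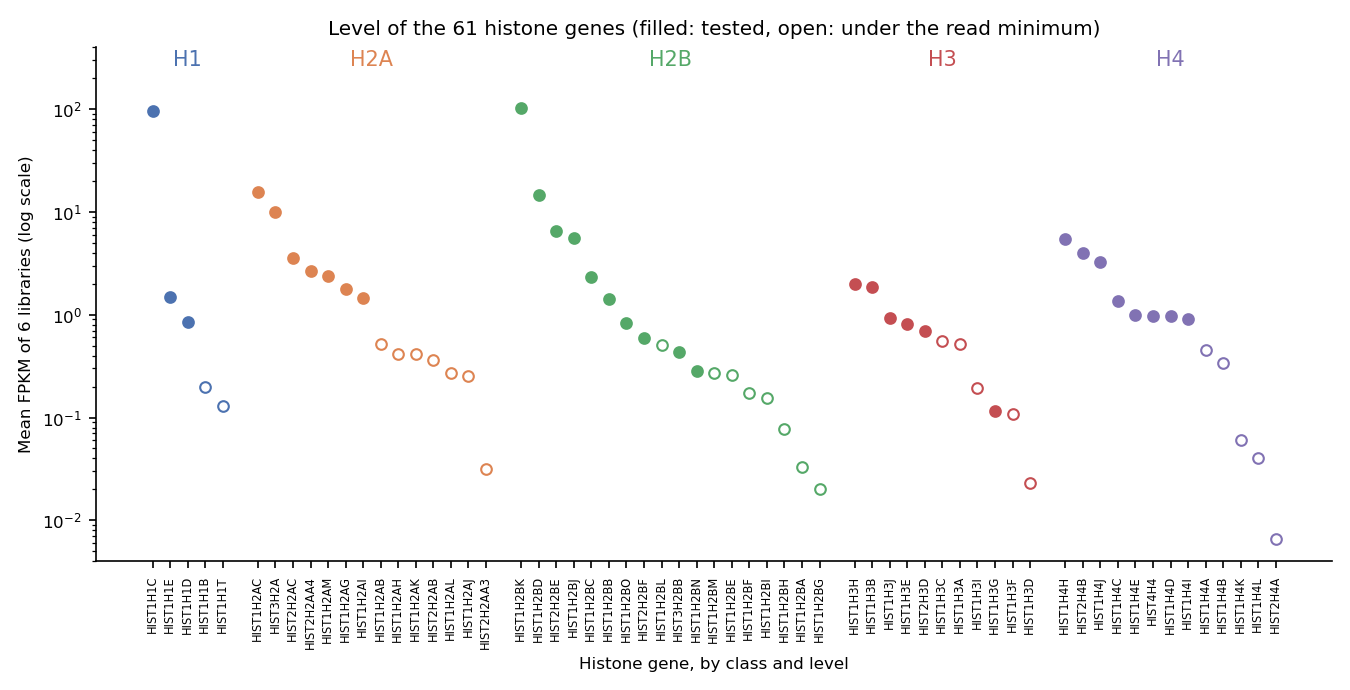
The mean FPKM over 6 libraries of each of the 61 histone genes on a log scale, ordered within class, with filled points for the 34 genes tested and open points for the 27 under the read minimum. HIST1H2BK at 101 FPKM and HIST1H1C at 95.9 FPKM stand above the other genes of their classes.

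The question of the comparison was which genes differ in RNA when TFAM is supplied from a plasmid. Among the 34 histone genes tested, 6, or 17.6%, fell in the TFAM-OE-labelled libraries and 0 rose, at an adjusted p under 0.05 in edgeR's quasi-likelihood test. Over all 16472 genes tested, 4.88% fell and 3.52% rose by the same rule. With a fold change of at least 2 also required, 5 histone genes, or 14.7%, were lower and 0 were higher, where 2.09% of all genes were lower and 0.449% higher. At an unadjusted p under 0.05, 13 histone genes were lower and 0 higher. At an adjusted p under 0.05, DESeq2 put 9 lower, edgeR's exact test 10 and limma-voom 5, and each of these tools put 0 higher. The share of all genes was not set beside the unadjusted count or beside the counts of these tools. They are therefore not read as a result about the histone genes. The log2 fold change was negative for 28 of the 34 and positive for 6, with a median of -0.51, against a median of -0.0088 over all genes tested. In 10 histone genes, or 29.4%, every library labelled TFAM-OE was below every control library and in 0 it was above, where 15.9% of all genes tested were below in this way and 15.8% above. The intervals of the other genes were wide: for 16 of the 28 genes that did not pass the adjusted p, the 95% interval included a fall of 2-fold or more.

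**Figure D2:**
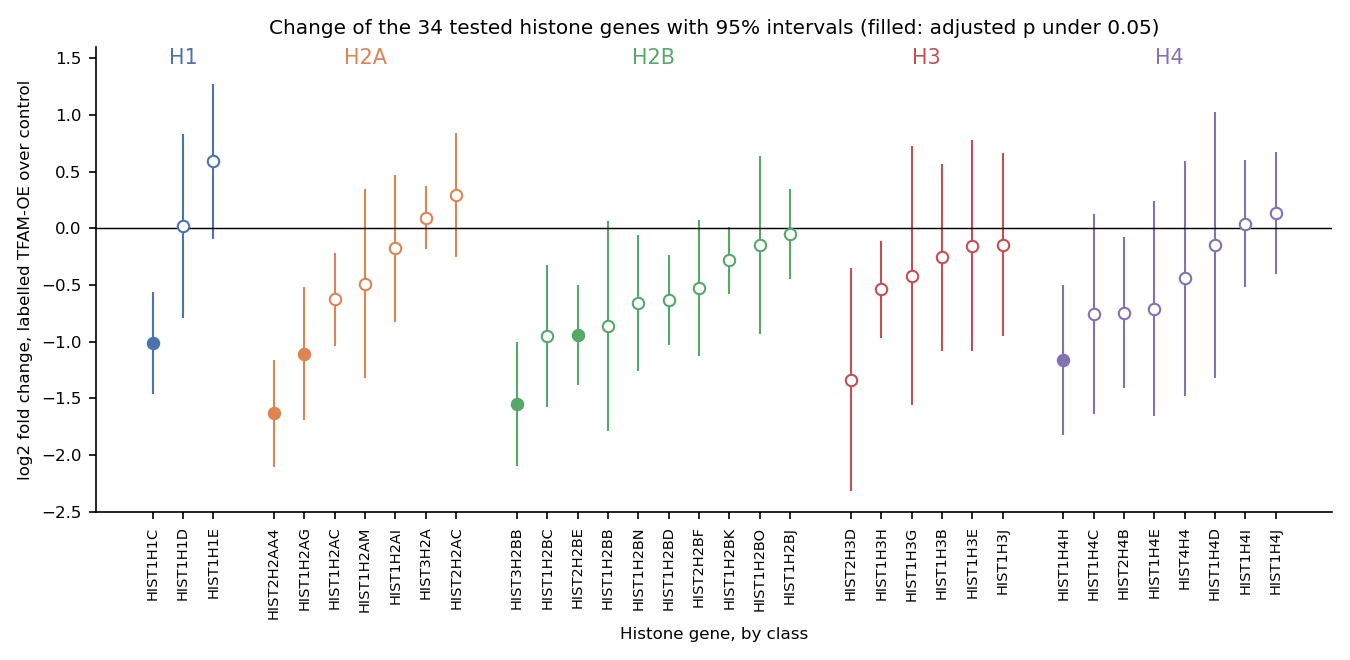
The log2 fold change, labelled TFAM-OE over control, of the 34 histone genes tested, grouped by class, with 95% intervals from the edgeR fit and filled points at an adjusted p under 0.05. Filled points lie between -0.94 and -1.63, in classes H1, H2A, H2B and H4.

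HIST1H1C, the linker histone gene that held 97.2% of the H1 reads, fell. It is a gene of 1 exon on chromosome 6 (GRCh38, 26055740 to 26056470, minus strand; ENSG00000187837.3). Its level was 114, 97.1 and 79.7 CPM in control replicates 1 to 3, and 59.9, 50.8 and 33.7 in the TFAM-OE-labelled libraries. The groups did not overlap, and replicate 3 labelled TFAM-OE was the lowest. The log2 fold change was -1.01 ± 0.20 (SE, adjusted p = 0.0167, edgeR's quasi-likelihood test), a ratio of 0.497 with a 95% interval of 0.364 to 0.677. HIST1H1C took 32.3%, 35.2% and 32.6% of all histone reads in the control libraries and 27.7%, 26.6% and 21.9% in those labelled TFAM-OE. Its share among the histone reads was thus lower too, without overlap. HIST1H1E, which encodes the linker histone H1.4, had 1.10, 0.897 and 0.819 CPM in the control and 1.91, 1.46 and 0.867 in the TFAM-OE-labelled libraries. These groups overlapped and the change was 0.59 ± 0.31 (adjusted p = 0.256). HIST1H1E and HIST1H1D, a linker gene with a change of 0.02 ± 0.36, were both far below HIST1H1C in level.

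HIST1H1C and HIST1H1E carry the same 16 bases of stem-loop, shown above. Their ratio within a library, which needs no scaling between libraries, was compared after these values had been seen. The log2 ratio of HIST1H1C to HIST1H1E reads was 6.68, 6.73 and 6.58 in the control and 4.96, 5.11 and 5.26 in the TFAM-OE-labelled libraries. It was lower by 1.55 without overlap, and the exact permutation test gave p = 0.1, two-sided, the smallest that 3 libraries against 3 can give. HIST1H1E had only 24 to 61 reads in a library. In GENCODE version 44, 1 other gene on the same strand overlaps HIST1H1E, while 0 overlap HIST1H1C. How reads in that overlap were assigned is not given in the sources used here.

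Of 7 H2A genes tested, 2 fell, HIST2H2AA4 and HIST1H2AG, with a class median of -0.49. HIST2H2AA4 is a gene of 1 exon on chromosome 1 (149851061 to 149851594, plus strand; ENSG00000272196.2). It had 3.07, 2.54 and 2.46 CPM in the control and 1.00, 0.825 and 0.767 in the TFAM-OE-labelled libraries. This was the largest fall among the histone genes tested, -1.63 ± 0.21 (adjusted p = 0.00228), to 0.323 of the control. The coding sequence of its neighbour HIST2H2AA3 is 100% identical to it. HIST2H2AA3 had 4 reads in all, where HIST2H2AA4 had 346. The study counted uniquely mapped reads, so reads that match both copies equally should be missing from both rows. How the counts came to be so unequal is not given in the sources used here. The fall is therefore that of the row named HIST2H2AA4, and the copies cannot be told apart.

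HIST1H2AG, on chromosome 6 (27133043 to 27133535, plus strand; ENSG00000196787.3), had 9.27, 5.46 and 4.64 CPM in the control. It had 3.54, 2.92 and 2.53 in the TFAM-OE-labelled libraries, a change of -1.11 ± 0.26 (adjusted p = 0.0324). Control replicate 1 was far above the other libraries. The deposited row implies a length of 2652 bases, where the annotated transcript has 493, so the fall is that of the row as counted. HIST1H2AC, the H2A gene with the highest level, had 46.9, 31.8 and 32.7 CPM in the control and 29.3, 23.1 and 19.9 in the TFAM-OE-labelled libraries. Those groups did not overlap either, but the change of -0.63 ± 0.18 did not pass in the quasi-likelihood test (adjusted p = 0.0654), while it passed with DESeq2 (adjusted p = 0.0160). HIST3H2A had 11.1, 9.64 and 9.99 against 11, 11.4 and 10.3 CPM. Its change was 0.095 ± 0.13 (adjusted p = 0.678) with a 95% interval from -0.19 to 0.38, so a 2-fold change in either direction lay outside the interval.

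Every one of the 10 H2B genes tested had a negative log2 fold change, with a median of -0.64, and 2 of them fell. HIST1H2BJ and HIST1H2BO, both near 0, turned positive without replicate 3 labelled TFAM-OE, and HIST1H2BJ also without control replicate 1. HIST3H2BB, on chromosome 1 (228458103 to 228458558 for its main transcript, plus strand; ENSG00000196890.4), had 1.996, 1.61 and 1.77 CPM in the control. It had 0.501, 0.578 and 0.767 in the TFAM-OE-labelled libraries. The fall was -1.55 ± 0.25 (adjusted p = 0.00622), to 0.342 of the control, from 16 to 67 reads in a library. HIST2H2BE, on chromosome 1 (149884459 to 149886682, minus strand; ENSG00000184678.9), is an H2B gene whose annotated transcript runs on past the stem-loop. It had 30.8, 19.8 and 17.8 CPM in the control and 13.04, 11.6 and 10.97 in the TFAM-OE-labelled libraries. The groups did not overlap and the fall was -0.94 ± 0.20 (adjusted p = 0.0207), to 0.520 of the control, just short of 2-fold.

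The H2B genes with the highest FPKM did not pass. HIST1H2BK had 57.7, 48.4 and 43.9 CPM in the control and 44.8, 42.8 and 35.7 in the TFAM-OE-labelled libraries, a change of -0.28 ± 0.13 (adjusted p = 0.214). Its interval ran from a ratio of 0.671 to 1.01, so a fall of 2-fold lay outside it. HIST1H2BD had 22.5, 18.0 and 13.7 against 12.3, 12.2 and 10.5 CPM, without overlap, and a change of -0.63 ± 0.18 (adjusted p = 0.0578). It passed with DESeq2 (adjusted p = 0.0136).

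None of the 6 H3 genes tested passed the adjusted p in either direction with the quasi-likelihood test, DESeq2 or limma-voom, while edgeR's exact test put HIST2H3D lower. At an unadjusted p under 0.05, 2 were lower and 0 higher, with no share of all genes set beside this count. All 6 log2 fold changes were negative, with a median of -0.34. HIST1H3H, the H3 gene with the most reads, had 3.99, 3.59 and 2.70 CPM in the control and 2.23, 2.34 and 2.50 in the TFAM-OE-labelled libraries. Its groups did not overlap, and the change was -0.54 ± 0.19 (adjusted p = 0.113). HIST1H3B had 1.19, 0.860 and 0.873 against 1.35, 0.550 and 0.567 CPM, with overlap, and a change of -0.26 ± 0.37 (adjusted p = 0.707).

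Of 8 H4 genes tested, HIST1H4H fell, and the class median was -0.57. Its main transcript lies on chromosome 6 (26285126 to 26285534, minus strand; ENSG00000158406.3), and 3 genes annotated on the opposite strand overlap it. The library kit marks strand, but whether the counting used it is not given in the sources used here. HIST1H4H had 5.04, 2.69 and 2.70 CPM in the control and 2.04, 1.40 and 1.23 in the TFAM-OE-labelled libraries. The groups did not overlap, with control replicate 1 far above the rest, and the fall was -1.16 ± 0.30 (adjusted p = 0.0428), to 0.448 of the control. With limma-voom it did not pass (adjusted p = 0.0518). HIST2H4B had 10.2, 5.08 and 4.64 against 4.83, 3.96 and 3.10 CPM, with overlap, and a change of -0.74 ± 0.30 (adjusted p = 0.152). Its identical copy HIST2H4A had 1 read in all, where HIST2H4B had 1039. Here too only uniquely mapped reads were counted, and how the counts came to be so unequal is not given in the sources used here. The coding sequences of HIST1H4J and HIST1H4K are also 100% identical, with 287 and 5 reads. HIST1H4J had a change of 0.14 ± 0.24 (adjusted p = 0.763).

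**Figure D3:**
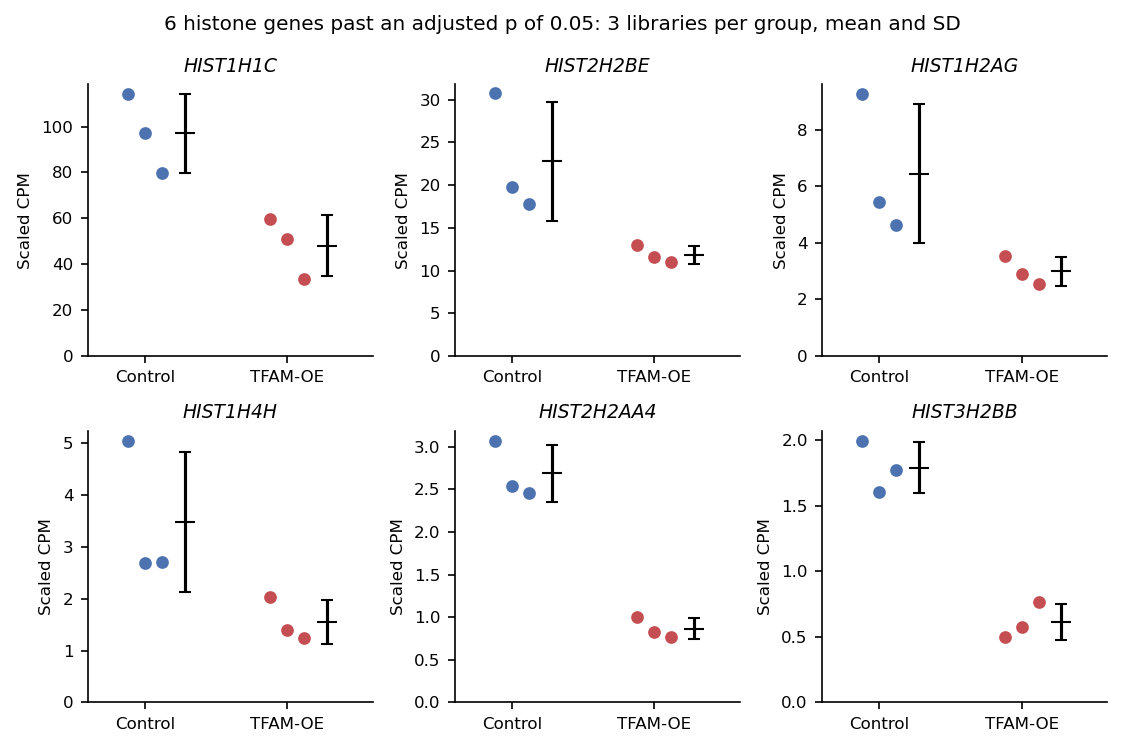
Scaled CPM in each of the 3 control libraries and 3 libraries labelled TFAM-OE for the 6 histone genes that fell, with the mean and SD of each group. The groups do not overlap in any of the 6, and control replicate 1, the leftmost point, is the highest library in each.

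How many genes fell depended on single libraries. Without control replicate 1, 2 histone genes fell, HIST2H2AA4 (-1.52, adjusted p = 0.0160) and HIST3H2BB (-1.46, adjusted p = 0.0387). HIST1H1C then had a change of -0.87 (adjusted p = 0.101), HIST1H2AG -0.74 (adjusted p = 0.115), HIST2H2BE -0.66 (adjusted p = 0.0635) and HIST1H4H -0.78 (adjusted p = 0.174). The same 2 genes were left without control replicate 2 and without replicate 2 labelled TFAM-OE. Without replicate 1 labelled TFAM-OE, 10 histone genes fell. The share of all genes that fell in these fits was not set beside the histone counts. Calls over all genes also varied with the library left out, so this dependence is not particular to the histone genes. HIST2H2AA4 and HIST3H2BB passed the adjusted p whichever single library was left out.

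Summed over all members of a class, whatever their reads, each class was lower in the TFAM-OE-labelled libraries, and no test was made of these sums. H1 summed to 98.9 ± 17.5 CPM in the control and 50.5 ± 14.2 in the TFAM-OE-labelled libraries (SD, n = 3), a log2 ratio of -0.97. H2A summed to 61.3 ± 12.6 against 43.3 ± 6.29, a log2 ratio of -0.50. H2B summed to 109 ± 21.7 against 77.4 ± 8.35, a log2 ratio of -0.49. In these classes the libraries of the groups did not overlap.

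H3 summed to 6.81 ± 0.90 CPM in the control and 5.17 ± 0.48 in the TFAM-OE-labelled libraries, a log2 ratio of -0.40 without overlap. H4 summed to 15.6 ± 5.29 against 10.7 ± 2.16, a log2 ratio of -0.55, and its libraries overlapped. Without control replicate 1 the log2 ratios were -0.84 for H1, -0.32 for H2A, -0.32 for H2B, -0.30 for H3 and -0.24 for H4. The direction of the H1 sum rested on its leading gene: without HIST1H1C its log2 ratio was 0.33. The other classes stayed negative without the gene with the most reads. Their log2 ratios were then -0.33 for H2A without HIST1H2AC, -0.70 for H2B without HIST1H2BK, -0.26 for H3 without HIST1H3H and -0.42 for H4 without HIST2H4B. All 61 genes together summed to 291 ± 56.7 and 187 ± 31.3 CPM, a log2 ratio of -0.64.

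Many H2A and H2B genes lie head to head and share the stretch of DNA between their starts. There were 10 pairs of histone genes whose starts lay 194 to 979 bases apart on opposite strands, and in 5 of them both genes were tested. In 3 of these 5 pairs, 1 gene fell while its partner did not pass the test, and the ratio of their reads within a library differed between the groups without overlap. The log2 ratio of HIST3H2A to HIST3H2BB was 2.46, 2.57 and 2.48 in the control and 4.41, 4.28 and 3.72 in the TFAM-OE-labelled libraries, a difference of 1.63. That of HIST2H2BE to HIST2H2AC was 4.79, 3.33 and 3.69 against 2.78, 2.58 and 2.83, a difference of -1.21. HIST2H2AC, an H2A gene, itself had a change of 0.29 ± 0.25 (adjusted p = 0.488).

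The log2 ratio of HIST1H2BJ to HIST1H2AG was -0.30, 0.039 and 0.30 in the control and 0.97, 1.08 and 1.00 in the TFAM-OE-labelled libraries, a difference of 1.00. HIST1H2BJ, an H2B gene, had a change of -0.052 ± 0.18 (adjusted p = 0.885). Each of these 3 ratios gave p = 0.1 in the exact permutation test, two-sided, the smallest possible with 3 libraries against 3. In the other pairs the groups overlapped: the ratio of HIST1H2BC to HIST1H2AC differed by -0.30 (exact permutation p = 0.5) and that of HIST1H2AM to HIST1H2BO by -0.14 (exact permutation p = 0.9). Adjusted over the 5 pairs, the smallest p was 0.167. HIST1H2BC had a change of -0.95 ± 0.28 (adjusted p = 0.0669, quasi-likelihood test), beside -0.63 ± 0.18 for HIST1H2AC. Both genes of that pair were thus lower without passing, and both passed with DESeq2 and edgeR's exact test. HIST1H2AM and HIST1H2BO had changes of -0.49 ± 0.37 and -0.15 ± 0.35, which did not pass.

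**Figure D4:**
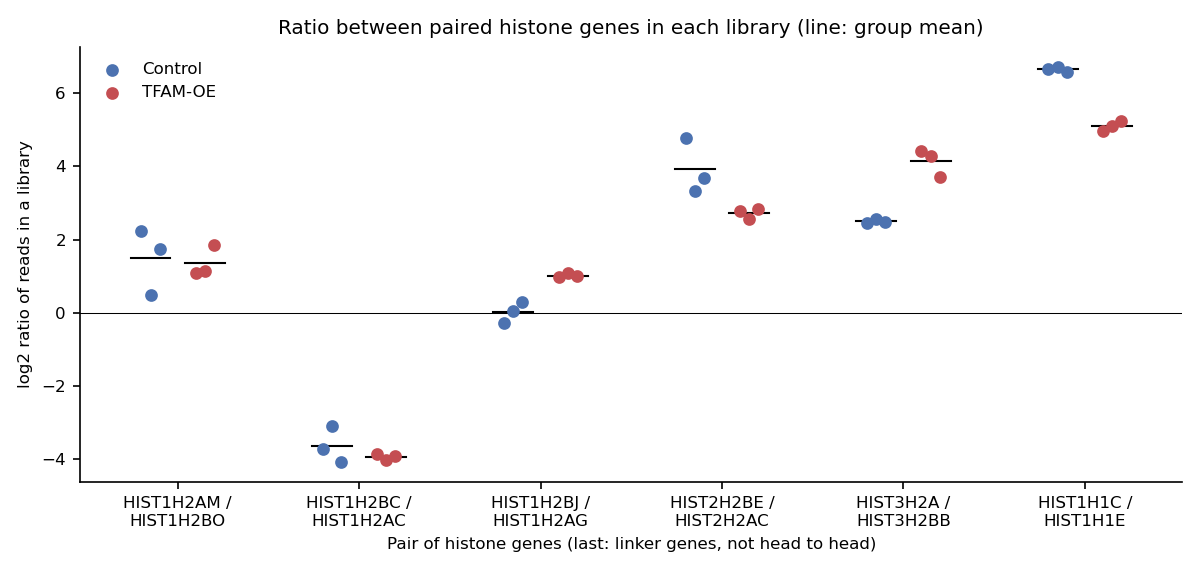
The log2 ratio of reads between the genes of a pair in each library, for the 5 head-to-head pairs with both genes tested and, last, for the linker genes HIST1H1C and HIST1H1E; lines mark group means. The groups do not overlap for HIST1H2BJ with HIST1H2AG, HIST2H2BE with HIST2H2AC, HIST3H2A with HIST3H2BB and the linker genes.

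Whether a single promoter region serves both genes of a pair was not tested. The stretches between the starts are shown here for the 3 pairs whose ratios did not overlap between the groups. Each is the RefSeq promoter (GRCh38.p14) of the gene that fell, 250 bases before to 50 after its start, 5′ to 3′ on the strand of that gene. Capitals mark the octamer ATTTGCAT, a binding site known from H2B promoters, and the CCAAT box, on either strand.
HIST3H2BB, chr1:228457853-228458152, plus strand: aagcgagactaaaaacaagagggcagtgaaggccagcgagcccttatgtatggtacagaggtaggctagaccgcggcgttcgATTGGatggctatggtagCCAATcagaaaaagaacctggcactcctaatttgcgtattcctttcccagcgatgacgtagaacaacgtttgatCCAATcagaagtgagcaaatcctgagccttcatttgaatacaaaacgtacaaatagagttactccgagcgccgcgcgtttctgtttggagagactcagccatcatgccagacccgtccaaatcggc
HIST2H2BE, chr1:149886633-149886932, minus strand: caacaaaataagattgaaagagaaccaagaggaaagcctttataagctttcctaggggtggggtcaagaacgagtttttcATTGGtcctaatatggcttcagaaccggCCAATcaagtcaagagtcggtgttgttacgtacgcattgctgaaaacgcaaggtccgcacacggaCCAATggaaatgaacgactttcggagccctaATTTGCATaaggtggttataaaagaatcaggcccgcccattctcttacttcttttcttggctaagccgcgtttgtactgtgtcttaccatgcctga
HIST1H2AG, chr6:27132793-27133092, plus strand: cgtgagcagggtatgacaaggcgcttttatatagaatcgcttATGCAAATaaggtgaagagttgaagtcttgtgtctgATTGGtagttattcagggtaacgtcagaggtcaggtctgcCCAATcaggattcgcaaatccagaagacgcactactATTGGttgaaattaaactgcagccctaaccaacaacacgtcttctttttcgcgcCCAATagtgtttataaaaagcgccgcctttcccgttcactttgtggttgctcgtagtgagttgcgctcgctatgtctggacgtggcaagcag
In HIST2H2BE and HIST1H2AG the octamer lies near the start of the H2B gene of the pair, and HIST3H2BB holds no exact octamer in this window. RefSeq promoters were found for 56 of the 61 genes. The octamer was in 14 of 18 H2B genes, 8 of 13 H2A genes, 1 of 9 H3 genes and 0 of 11 H4 and 5 H1 genes, against 2.19% of 27305 genes with a promoter entry. It overlapped a CCAAT box in 0 of the 56. Promoters of head-to-head genes overlap, so 1 octamer can count for both genes, as for HIST1H2AG and HIST1H2BJ. The octamer of the H3 gene lay in a second promoter entry of that gene, which overlaps an H2B promoter. The class counts are therefore not counts of separate sites. Among the histone genes that fell, 2 of 6 held the octamer, or 33.3%, and among the other tested ones 9 of 26, or 34.6%. The CCAAT box was in 83.9% of the histone promoters and 39.7% of all. By class it was in 100% of the H1, H2A, H2B and H3 promoters but in 2 of 11 H4 promoters, or 18.2%.

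Some histone genes have annotated transcripts with more than 1 exon. Of the 61 genes, 15 had such a transcript in GENCODE version 44, and 13 of these were tested, with a median log2 fold change of -0.63. Of the 46 genes without one, 21 were tested, with a median of -0.42. Of the genes that fell, 2 of 6 were of the first kind. The deposited counts and FPKM together imply the transcript length that was used for each gene, with depth taken as the sum of the deposited counts. Among tested genes, 12 at 900 bases or more had a median of -0.63 and 20 shorter ones had -0.27, with no test made of these medians. Tested genes under 0.5 FPKM in every library were given no implied length and are in neither group. The genes that fell within the 3 head-to-head pairs had implied lengths of 2782 bases for HIST3H2BB, 2664 for HIST2H2BE and 2652 for HIST1H2AG. Their partners had 1056 for HIST3H2A, 460 for HIST2H2AC and 1121 for HIST1H2BJ. In GENCODE version 44 the longest transcript of HIST1H2AG has 493 bases, while HIST2H2BE has 2224 and HIST3H2BB 5002. The HIST1H2AG row thus implies a model longer than any annotated there. Which bases that model covered is not given in the sources used here. The other genes that fell were short in implied length, with 757 bases for HIST1H1C, 665 for HIST2H2AA4 and 468 for HIST1H4H. Whether the reads came from stem-loop ends or from longer transcripts was not tested.

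By cluster, the 25 tested genes of HIST1 on chromosome 6 had a median log2 fold change of -0.42, with 3 that fell. The 6 tested genes of HIST2 had -0.84, with 2 that fell, and without control replicate 1 this median was -0.29. HIST3 had 2 tested genes, HIST3H2BB and HIST3H2A, described above. The gene of HIST4, HIST4H4, an H4 gene, had a change of -0.44 ± 0.46 (adjusted p = 0.591).

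The factors that make and process histone mRNA were compared next, in a list of 15 genes, all tested. Of the 15, 1 fell and 0 rose, where 4.88% of all genes tested fell and 3.52% rose. A count of 1 in 15 lies near the share over all genes. The gene that fell was ZNF473, the zinc finger protein of the cutting complex. ZNF473 had 25.9, 24.2 and 23.5 CPM in the control and 16.8, 15.9 and 14.97 in the TFAM-OE-labelled libraries, without overlap, a fall of -0.63 ± 0.11 (adjusted p = 0.0104). SLBP, the stem-loop binding protein, had 59.1, 57.3 and 64.6 against 78.1, 69.3 and 68.9 CPM. Its groups did not overlap, but the change of 0.26 ± 0.099 did not pass (adjusted p = 0.140). NPAT, the activator of histone gene transcription, had a change of -0.23 ± 0.28 (adjusted p = 0.651) and CASP8AP2, its partner at the histone gene bodies of the nucleus, 0.058 ± 0.21 (adjusted p = 0.890). LSM10 and LSM11, ring proteins of the cutting complex, had -0.0051 ± 0.15 and -0.074 ± 0.14. The median of the list was -0.074.

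Genes outside the clusters that belong to chromatin and the cell cycle rose in part. The counts below stand against 3.52% of all genes tested that rose and 4.88% that fell. Of 11 replication-independent histones tested out of 12, 3 rose and 0 fell, with a median log2 fold change of 0.32. They were H2AFZ, which encodes the variant H2A.Z, with 0.51 ± 0.11 (adjusted p = 0.0209), H3F3A, which encodes H3.3, with 0.49 ± 0.10 (adjusted p = 0.0200), and CENPA, the H3 of centromeres, with 0.62 ± 0.11 (adjusted p = 0.00878). H2AFZ had 243, 242 and 295 CPM in the control and 391, 373 and 348 in the TFAM-OE-labelled libraries. Of the 11, 8 had a positive log2 fold change and 3 a negative one. The lowest was that of H1F0, an H1 gene, with -0.38 ± 0.10, just short of passing (adjusted p = 0.0502). H1F0 had 283, 246 and 227 CPM in the control and 186, 193 and 200 in the TFAM-OE-labelled libraries, without overlap. Of 16 histone chaperones and carriers, 4 rose and 0 fell, with a median of 0.22. These were ASF1B and CHAF1B, which bring H3 and H4 to new DNA, HJURP, the chaperone of CENPA, and IPO4, a nuclear importer, with changes from 0.33 for HJURP to 0.60 for IPO4.

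Of 21 genes of S phase, 8 rose and 0 fell, and all 21 had a positive log2 fold change, with a median of 0.40. Over all genes tested, 3.52% rose. In 19 of the 21 every library labelled TFAM-OE was above every control library, against 15.8% of all genes tested. The 8 were MCM4, MCM5 and MCM6 of the replicative helicase, CDC6 and CDC45, which load and complete it, TYMS, which makes thymidylate, CCNA2, a cyclin, and E2F1, an activator of S phase genes. E2F1 had 38.3, 47.9 and 53.2 CPM in the control and 79.8, 78.1 and 69.5 in the TFAM-OE-labelled libraries, a rise of 0.71 ± 0.13 (adjusted p = 0.0121). Control replicate 1, the library with the highest level of many clustered histone genes, was the lowest of the 6 libraries for 14 of the 21 S phase genes, including 6 of the 8 that rose. It was the lowest for 6 of the 11 replication-independent histones and 8 of the 16 chaperones as well, and its part in these rises was not tested beyond leaving it out. Without it, 1 of the 21 S phase genes, 1 replication-independent histone and 0 chaperones rose, and ZNF473 no longer passed. Without control replicate 2 or replicate 2 labelled TFAM-OE, 0 S phase genes rose. All these groups are set against the same control libraries, so their directions are not independent of each other.

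**Figure D5:**
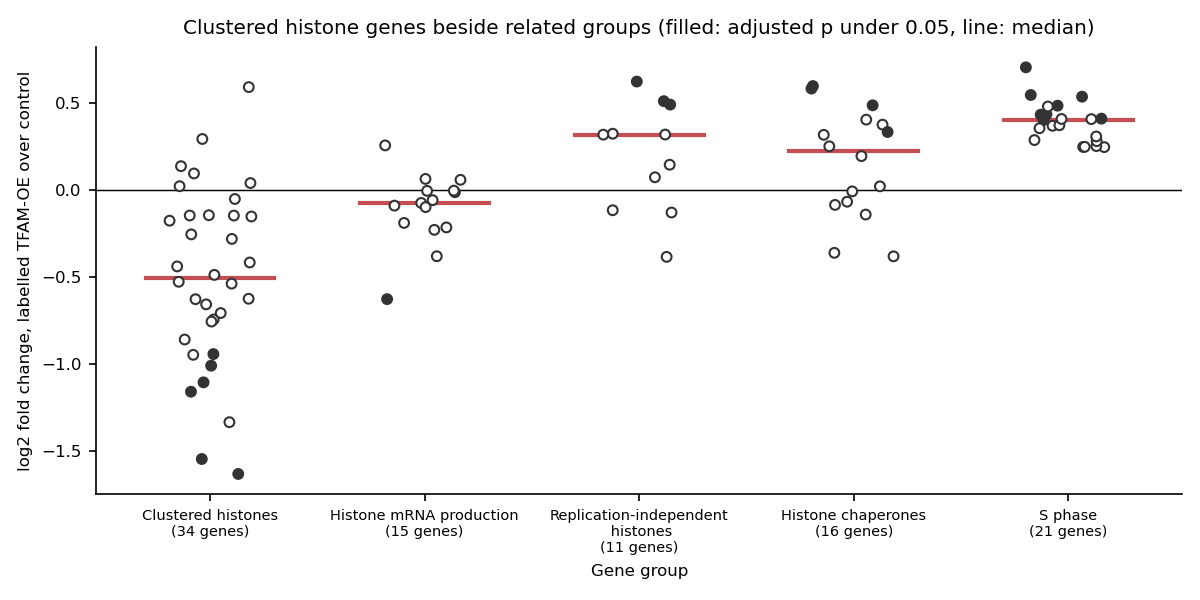
The log2 fold change of the 34 clustered histone genes tested beside 15 genes of histone mRNA production, 11 replication-independent histones, 16 chaperones and 21 S phase genes, with filled points at an adjusted p under 0.05 and a line at each median. The medians were -0.51, -0.074, 0.32, 0.22 and 0.40.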

How the data were processed

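RNA was measured in 6 libraries of A549 cells, 3 per group, made with a stranded kit from polyadenylated RNA. After trimming, the authors mapped the reads to GRCh38 using TopHat2, and unique alignments were assigned to genes. By which program, which annotation and which strand setting this was done is not given in the sources used here. The deposited values were raw counts and FPKM per gene in each library, and the deposited FPKM served only for levels between genes and for implied transcript lengths. Unused value columns numbered 0.

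Libraries were grouped by their labels. The p-values measure the spread between the 3 cultures of a group, and depth limits only counting error: reads carry no molecular identifiers. Genes with a mean of at least 10 reads over the 6 libraries (16472 of 29845) entered edgeR's quasi-likelihood test (edgeR 4.0.16 under R 4.3.3), two-sided, with TMM scaling and Benjamini-Hochberg adjustment over all genes tested. This minimum was used because a fit on every gene with a read gave an infinite prior df, which pools the spread of all genes, where the fit used here gave 5.92. A positive log2 fold change means a higher level in libraries labelled TFAM-OE, and SEs come from the fit. DESeq2 (1.42.0), limma (3.58.1), other scalings and filters, a replicate block and leaving out each library were tried as alternatives. The robust quasi-likelihood fit was added after the data were seen.

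Ratios of reads within a library had 0.5 added to each count and were tested with exact permutation over libraries. Of the 61 genes, 57 were matched to GENCODE version 44 by gene ID and 4 by a RefSeq synonym, and sequences were read from GRCh38 with pysam (0.24.0). The genes named were those past an adjusted p of 0.05, the 2 with the highest mean FPKM in each class and near-identical copies of called genes. HIST1H1D, HIST2H3D, HIST4H4, other identical copies and partners of head-to-head pairs were added once their values were known. In the related lists, genes past an adjusted p of 0.05 and 6 dedicated histone mRNA factors were named. H1F0 was added once its values were known. The histone genes and the lists were chosen with earlier results of these data known. The fits were tested on simulated counts.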

Additional observations from a re-analysis of the deposited data

How the results depend on the processing

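The count of histone genes called lower was 5 and stayed between 4 and 6 under DESeq2, edgeR's exact test, limma-voom, the other scalings, the other filters and the robust fit. Leaving out each library gave 2 to 7. The count lower by adjusted p alone was 6, and it was 10 with edgeR's exact test, 10 with all genes with a read and 2 to 10 with each library left out. Outside the main test, the share of all genes was not set beside these counts. Histone genes higher by adjusted p numbered 0 to 1 with each library left out: without replicate 3 labelled TFAM-OE, HIST1H1E rose (0.84, adjusted p = 0.0482). The H1 sum had a log2 ratio of 0.33 without HIST1H1C, and the HIST2 median of -0.84 ranged from -0.29 to -1.02 with each library left out. HIST1H4H did not pass with limma-voom or with library size alone (adjusted p = 0.0550). Over the 23 tested histone genes named, 322 alternatives kept the direction and the side of the threshold, 14 no longer passed, 18 passed anew and 12 changed sign, all in genes that did not pass. With each library left out, the log2 fold change of HIST1H1D ranged from -0.43 to 0.24, HIST1H2AM from -0.78 to 0.028, HIST1H2BJ from -0.16 to 0.10, HIST1H2BO from -0.32 to 0.015, HIST1H4J from -0.0020 to 0.31 and HIST4H4 from -0.77 to 0.36. HIST1H1D was also negative with limma-voom (-0.062), library size alone (-0.0083) and the block (-0.028).

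With each library left out, S phase genes that rose numbered 0 to 14, replication-independent histones 0 to 6 and chaperones 0 to 6, and genes of histone mRNA production that fell numbered 0 to 2. With all genes with a read, 13 S phase genes rose, and 2 genes of histone mRNA production fell, as many as with edgeR's exact test. With DESeq2 and with the exact test, 5 replication-independent histones rose and 1 fell, and 1 fell with all genes with a read. Over the 21 list genes named, H1F0 left out, 259 alternatives kept direction and side, 67 no longer passed and 10 changed sign. With each library left out, NPAT ranged from -0.50 to 0.073, CASP8AP2 from -0.094 to 0.23 and LSM10 from -0.13 to 0.14. LSM10 was also positive with DESeq2 (0.0013), RLE scaling (0.0013), upper-quartile scaling (0.0026) and all genes with a read (0.0011). Left-out libraries put 0 to 1 replication-independent histones and 0 to 1 chaperones lower.

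Of all genes, 344 were called lower and 74 higher. With all genes with a read, 528 were lower and 129 higher, and with each library left out 180 to 430 were lower and 21 to 114 higher. Library numbers were tested as a pairing: same-numbered libraries had correlations of -0.30, 0.033 and -0.36 in their deviations from the group means, so the numbers do not pair them, and not every library correlated best with its own number. With the replicate block, 5 histone genes were called lower and 6 fell by adjusted p, 229 of all genes were called lower and 38 higher. In the same blocked fit, 0 genes rose in each of the S phase, replication-independent histone and chaperone lists and 0 fell in histone mRNA production. The causes of these changes were not tested.

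The 27 genes under the read minimum were compared singly only in the fit on all genes with a read, where none of them was among the 10 that passed.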
